A study of Gallus gallus with 12 samples.

Results

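The thioredoxin, glutathione and NRF2 antioxidant genes were described in HD11, a chicken macrophage-like cell line, after treatment with Se-methylselenocysteine (SeMC, a selenium-containing amino acid) or lipopolysaccharide (LPS, a bacterial cell wall component that activates macrophages). The group was fixed as a list of 44 gene symbols, chosen with earlier results of these data known. Of these, 39 were found among the 16161 genes of the deposited RNA-seq count table. KEAP1, TXNIP, SOD3, GSTO1 and TKT were not analysed here. Selenoenzymes were left out of the list on purpose, although the study describes TXN2, which is in it, as a selenoprotein. Of the 39 genes, 37 passed the filter on low counts and were tested, and NQO1 and OSGIN1 did not pass it.

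RNA-seq was performed for 4 groups with 3 replicates each, and 3 of these groups were used here. The SeMC+PBS group was seeded in medium with 100 µM SeMC 12 h before the time of challenge and received PBS instead of LPS. The LPS group received 100 ng/mL LPS for 6 h without SeMC, and the Control group received PBS alone. All groups are the same cell line, cultured with fetal bovine and chicken serum. The fourth group, SeMC+LPS, was left out, because each of its counts is the whole-number part of the mean of the LPS and SeMC+PBS counts of that replicate number in all 39 genes of the group and in 16160 of the 16161 genes of the table. The labels do not say whether replicates are separate cultures, so the p-values measure the spread between these libraries, which may be technical.

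The total count per library was 10656332 to 11531551 in SeMC+PBS, 13451069 to 14018893 in LPS and 14972385 to 17024392 in Control, so the SeMC+PBS libraries were the shallowest and depth moved with the treatment. Macrophage markers (CSF1R, SPI1, PTPRC, MPEG1, CD74, CTSS, LY86, TLR4 and MARCO) were all detected, with summed levels of 4367 to 4853 CPM in SeMC+PBS, 5008 to 5066 CPM in LPS and 5328 to 5645 CPM in Control. Single markers differed more than their sum, with mean levels for CSF1R of 318 CPM in SeMC+PBS, 53.4 CPM in LPS and 355 CPM in Control. For MPEG1 they were 446, 213 and 592 CPM in the same order, for SPI1 392, 680 and 407 CPM, and for CD74 1072, 2027 and 1308 CPM. By mean level, SPI1, PTPRC, CD74 and TLR4 were higher in LPS than in Control. CSF1R, MPEG1, CTSS, LY86 and MARCO were lower in LPS than in Control. CPM is the usual depth-scaled count unit, here after TMM scaling of library sizes, which corrects for RNA composition. T cell markers and B cell markers each summed to at most 1.25 CPM in any library. The fibroblast collagen COL1A1 was at 13.4 to 18.0 CPM in SeMC+PBS, 10.6 to 13.5 CPM in LPS and 7.34 to 10.7 CPM in Control. The red cell marker HBBA was at 1.09 to 2.34 CPM in SeMC+PBS, 0.074 to 0.46 CPM in LPS and 0.46 to 0.64 CPM in Control, and epithelial CDH1 at 3.03 to 5.77, 1.11 to 4.51 and 2.04 to 3.12 CPM in the same order. The part of these markers in the results was not tested. The summed level of 4 LPS response genes (NOS2, IL1B, IL8L2 and CCL5) was 51.9 to 55.0 CPM in SeMC+PBS, 1586 to 1714 CPM in LPS and 53.5 to 64.2 CPM in Control. Singly, mean levels in SeMC+PBS and Control were 11.2 and 24.8 CPM for IL1B and 0.18 and 0.40 CPM for CCL5. They were 21.5 and 16.1 CPM for IL8L2 and 20.3 and 18.0 CPM for NOS2.

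NRF2, encoded by NFE2L2, is the transcription factor that switches on antioxidant genes, and it acts as a pair with a small MAF protein such as MAFG or MAFK. In unstressed mammalian cells it is held and degraded through KEAP1, while BACH1 occupies the same DNA elements as a repressor and SQSTM1 can take KEAP1 away. Its known targets in mouse and human make and recycle glutathione, keep thioredoxin and peroxiredoxins reduced, detoxify electrophiles and supply NADPH. In macrophages these systems act on the oxidants that the cells make during activation.

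SeMC alone changed few of these genes by a large factor. A gene was called when the false discovery rate (FDR, the adjusted p) was under 0.05 and the fold change exceeded 1.5, which is 0.58 on the log2 scale, and it is said to have risen or fallen when the FDR was under 0.05. In SeMC+PBS/Control 5 of the 37 genes were called, which is 13.5% against 14.1% of all 13146 genes tested. PRDX4 and GSTT1 rose (2 genes, 5.41%, against 8.5% of all genes), and GSTZ1, GLRX and MGST3 fell (3 genes, 8.11%, against 5.58%). At an FDR under 0.05 with any fold change 13 of the 37 genes passed, 35.1% against 39.3% of all genes. Of these, 4 rose (10.8%, against 20.3% of all genes) and 9 fell (24.3%, against 19.1%). The median absolute log2 fold change was 0.13 over the 37 genes and 0.21 over all genes tested. The share called among the antioxidant genes was therefore near that of all genes.

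LPS was compared with Control in the same way. In LPS/Control 7 of the 37 genes were called, 18.9% against 12% of all 13008 genes tested. PRDX1, MAFK and GLRX rose (3 genes, 8.11%, against 6.13% of all genes), and GSTZ1, GSTA3, GSTT1 and IDH1 fell (4 genes, 10.8%, against 5.92%). With any fold change 19 of the 37 genes passed, 51.4% against 34.5% of all genes. Of these, 11 rose (29.7%, against 18% of all genes) and 8 fell (21.6%, against 16.5%). The median absolute log2 fold change was 0.24 over the 37 genes and 0.20 over all genes tested. The median level of the 37 genes over the 9 libraries was 64.8 CPM, against 30.0 CPM for all 13449 genes tested in at least 1 comparison.

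SeMC+PBS/Control and LPS/Control share the Control libraries, so the treatments were also compared directly. In SeMC+PBS/LPS 9 of the 37 genes were called, 24.3% against 22.9% of all 12979 genes tested. GSTT1, GSTA3 and PRDX4 were higher in SeMC+PBS (3 genes, 8.11%, against 12.5% of all genes), and GLRX, PRDX1, MAFK, SQSTM1, NFE2L2 and ABCC1 were lower (6 genes, 16.2%, against 10.4%). With any fold change 20 of the 37 genes passed, 54.1% against 54.3% of all genes. Of these, 7 were higher (18.9%, against 27.2% of all genes) and 13 lower (35.1%, against 27.1%). The median log2 fold change of the 37 genes was -0.01 in this comparison.

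A simpler description asks in how many genes the 3 libraries of each group did not overlap. In SeMC+PBS/Control this held for 15 of the 37 genes, 40.5% against 51% of all genes, with 6 higher (25.1% of all genes) and 9 lower (26%). In LPS/Control it held for 21 genes, 56.8% against 46.5%, with 13 higher (22.8% of all genes) and 8 lower (23.7%). In SeMC+PBS/LPS it held for 22 genes, 59.5% against 61.5%, with 9 higher (32% of all genes) and 13 lower (29.4%).

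**Figure D1:**
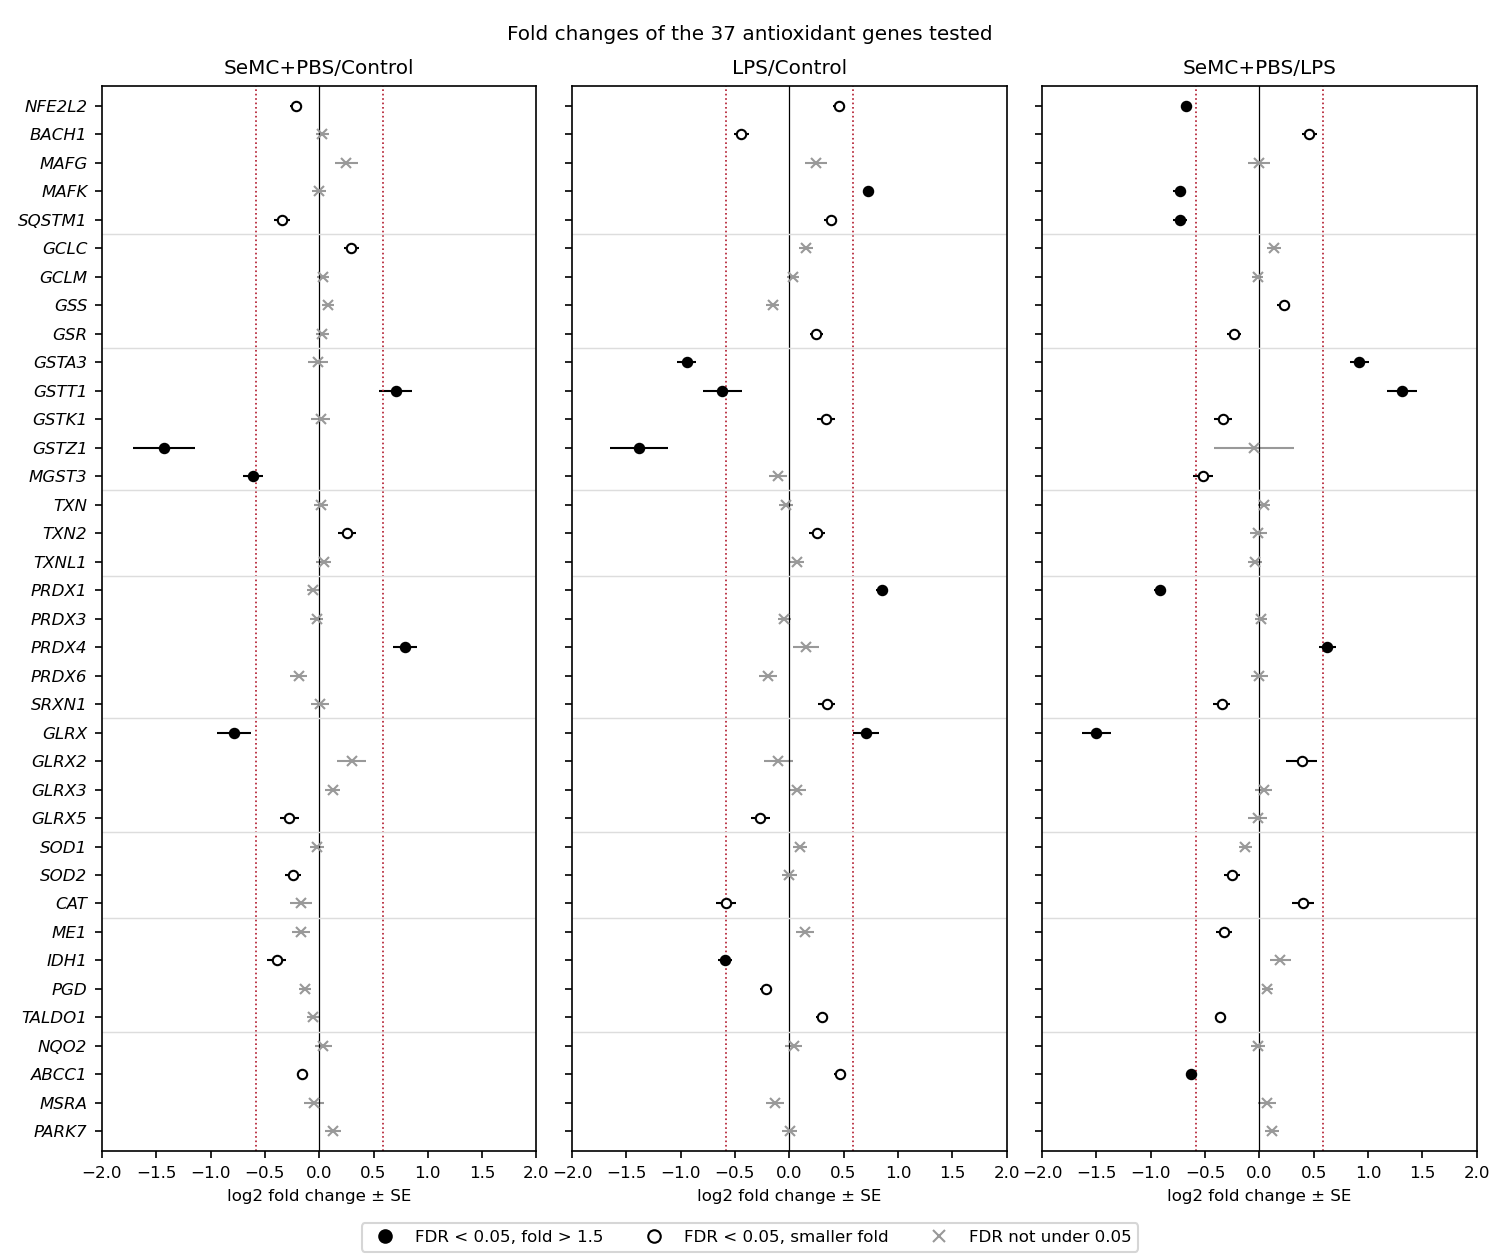
Log2 fold changes of the 37 antioxidant genes tested (horizontal axis, points with standard error) in SeMC+PBS/Control, LPS/Control and SeMC+PBS/LPS, with genes ordered by role on the vertical axis and dotted lines at a fold change of 1.5. Filled circles mark the 5, 7 and 9 genes called, open circles an FDR under 0.05 at a smaller fold, and crosses the genes that did not pass the test.

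Among the regulators, LPS raised NFE2L2, MAFK and SQSTM1 and lowered BACH1, while SeMC+PBS lowered NFE2L2 and SQSTM1. NFE2L2 (chromosome 7, 15417979 to 15442325 of GRCg7b), the activator itself, had 191, 180.3 and 181 CPM in SeMC+PBS, 286, 293 and 290.0 CPM in LPS and 206, 224 and 211 CPM in Control. The LPS libraries lay above and the SeMC+PBS libraries below all Control libraries, without overlap. Its log2 fold change was -0.21 ± 0.0563 (SE, adjusted p = 0.0076) in SeMC+PBS/Control and 0.45 ± 0.0518 (SE, adjusted p = 6.5e-06) in LPS/Control. Compared directly, NFE2L2 was 1.60-fold lower in SeMC+PBS than in LPS, or -0.68 ± 0.0477 (SE, adjusted p = 9.2e-08) on the log2 scale.

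MAFK (chromosome 14, 2601131 to 2615791), a small MAF partner of NRF2, had 159, 176 and 147 CPM in SeMC+PBS, 263, 271 and 257 CPM in LPS and 156, 160.1 and 166 CPM in Control. The LPS libraries stood clear of the other 6, and SeMC+PBS overlapped Control. MAFK was 1.65-fold higher in LPS than in Control, with a log2 fold change of 0.73 ± 0.0507 (SE, adjusted p = 2.8e-08), while that in SeMC+PBS/Control was 0.0013 ± 0.0659 (SE, adjusted p = 0.99). It overlaps GAA2, whose level was 276 to 297 CPM in SeMC+PBS, 434 to 473 CPM in LPS and 257 to 274 CPM in Control. The strand setting is not stated, so reads of the 2 genes may not have been told apart where they overlap. MAFG, the other small MAF of the group, had 21.7, 24.0 and 26.0 CPM in SeMC+PBS, 22.9, 25.4 and 22.6 CPM in LPS and 17.7, 21.4 and 21.3 CPM in Control. Its libraries in both treatments lay above those of Control by a narrow margin, and the log2 fold changes of 0.25 (adjusted p = 0.074) in SeMC+PBS/Control and 0.24 (adjusted p = 0.082) in LPS/Control did not pass the test. In SeMC+PBS/Control MAFG passed it without SeMC+PBS replicate 1 (0.32, adjusted p = 0.049) and after thinning to equal depth (0.34, adjusted p = 0.030).

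BACH1 (chromosome 1, 104182536 to 104211123), the repressor, had 98.6, 105 and 102 CPM in SeMC+PBS, 69.7, 69.5 and 79.7 CPM in LPS and 99.5, 104 and 96.5 CPM in Control. All LPS libraries were below all others, and SeMC+PBS overlapped Control. It fell in LPS/Control, with a log2 fold change of -0.44 ± 0.0682 (SE, adjusted p = 0.00013), and that in SeMC+PBS/Control was 0.03 ± 0.0595 (SE, adjusted p = 0.74). In the direct comparison it was 1.37-fold higher in SeMC+PBS than in LPS (log2 fold change 0.46, adjusted p = 8.6e-05).

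SQSTM1 (chromosome 13, 13066089 to 13070488), which encodes the autophagy receptor p62, had 45.2, 43.6 and 42.1 CPM in SeMC+PBS, 71.4, 71.1 and 71.9 CPM in LPS and 56.7, 54.7 and 54.8 CPM in Control. The 3 groups did not overlap, with LPS highest and SeMC+PBS lowest. The log2 fold change was -0.34 ± 0.0704 (SE, adjusted p = 0.0016) in SeMC+PBS/Control, 0.38 ± 0.0624 (SE, adjusted p = 0.00022) in LPS/Control and -0.73 ± 0.0678 (SE, adjusted p = 1.3e-06) in SeMC+PBS/LPS. SQSTM1 overlaps LOC124417178, which had at most 27 counts in a library, against at least 481 counts for SQSTM1.

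**Figure D2:**
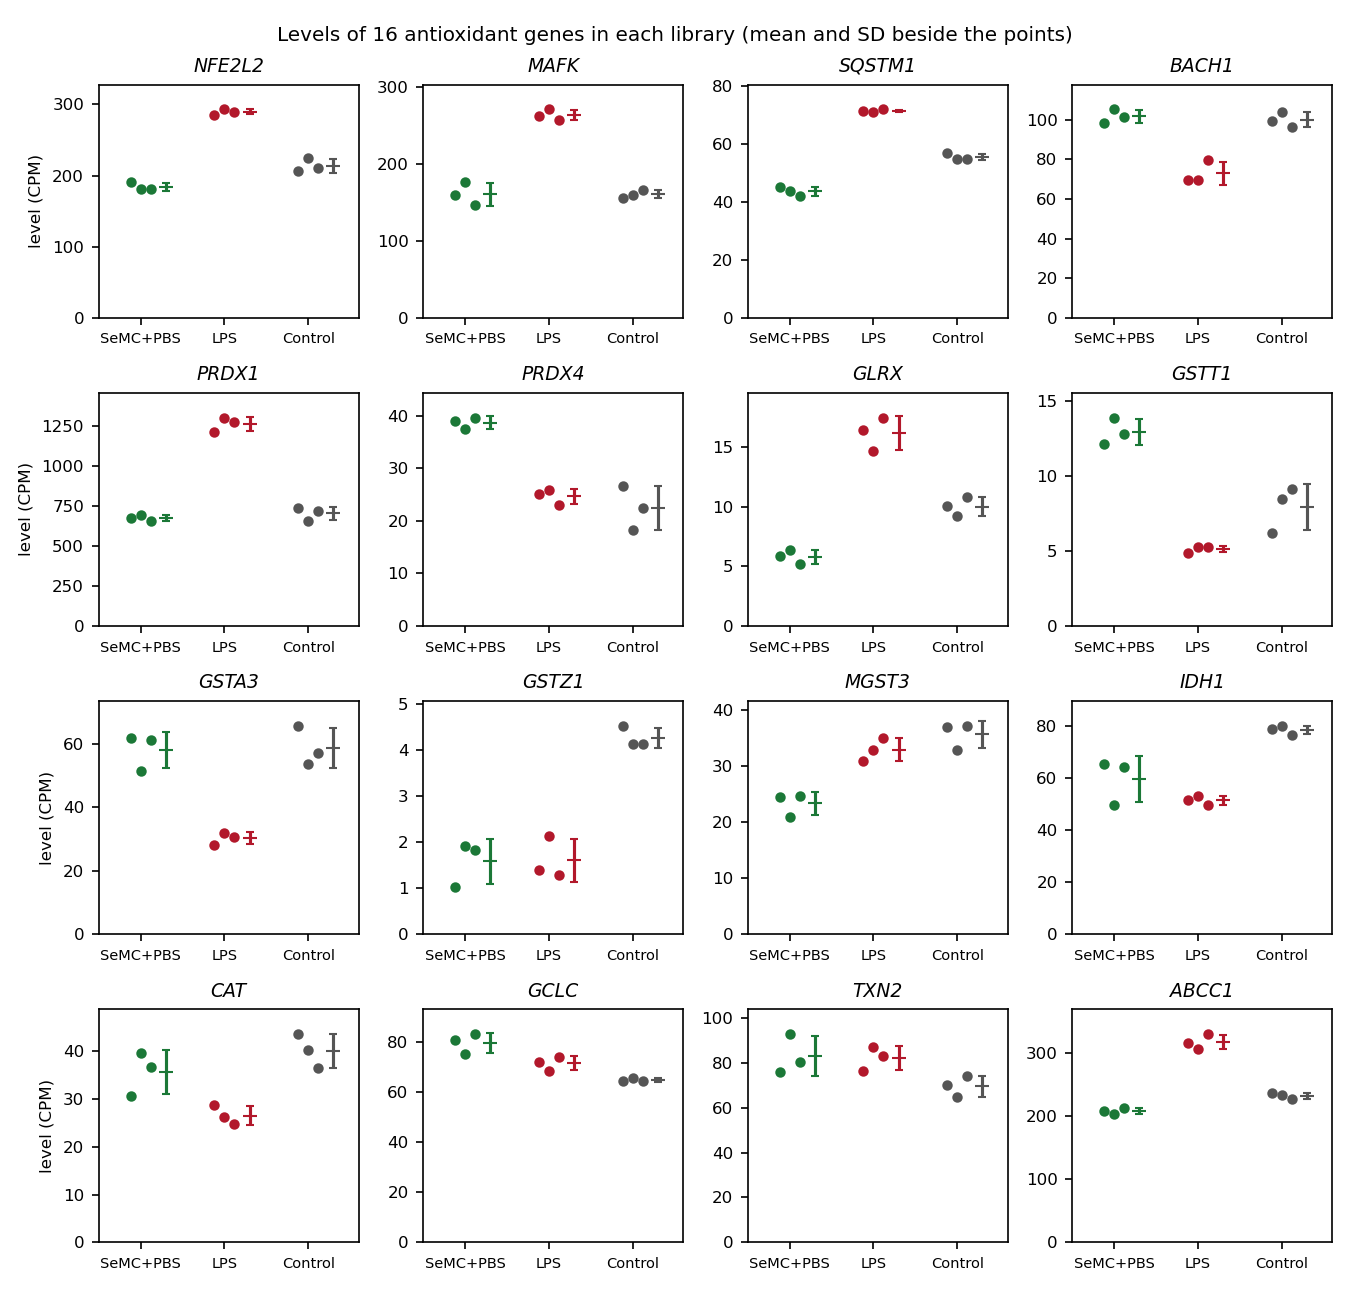
Level of 16 antioxidant genes in CPM (vertical axes, from 0) in each of the 3 libraries of SeMC+PBS, LPS and Control, with the mean and SD (n = 3) beside the points. The LPS points of NFE2L2, MAFK, SQSTM1, PRDX1, GLRX and ABCC1 lie above all others, and PRDX4 and GSTT1 are highest in SeMC+PBS.

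No gene of glutathione synthesis or recycling was called in any comparison. GCLC (chromosome 3, 87865893 to 87898624), the catalytic subunit of the enzyme that limits glutathione synthesis, had 80.7, 75.0 and 83.1 CPM in SeMC+PBS, 72.1, 68.5 and 74.0 CPM in LPS and 64.5, 65.7 and 64.5 CPM in Control. All SeMC+PBS libraries were above all LPS libraries and all LPS libraries above all Control libraries. It rose by a log2 fold change of 0.30 ± 0.0650 (SE, adjusted p = 0.0023) in SeMC+PBS/Control, whereas 0.15 ± 0.0632 (SE, adjusted p = 0.073) in LPS/Control did not pass the test. The direct comparison, at 0.13 (adjusted p = 0.1), did not pass it either, although with 9 libraries in 1 fit it did (0.15, adjusted p = 0.046).

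GCLM, the modifier subunit of the same enzyme, had 140.0, 142 and 134 CPM in SeMC+PBS, 139, 133 and 141 CPM in LPS and 138, 138 and 131 CPM in Control. The 3 groups overlapped, and the log2 fold changes were 0.03 ± 0.0558 (SE) in SeMC+PBS/Control and 0.03 ± 0.0542 (SE) in LPS/Control, with adjusted p of 0.68 and 0.66. DNTTIP2, which overlaps GCLM, was at 86.2 to 94.7 CPM in SeMC+PBS, 74.5 to 78.5 CPM in LPS and 73.5 to 77.4 CPM in Control. GSS, which completes glutathione, passed the test in neither comparison with Control, with log2 fold changes of 0.08 in SeMC+PBS/Control and -0.15 in LPS/Control, but it was higher in SeMC+PBS than in LPS (0.22, adjusted p = 0.0068). GSR, the reductase that regenerates glutathione with NADPH, had 89.9, 82.5 and 85.1 CPM in SeMC+PBS, 93.4, 99.1 and 105 CPM in LPS and 84.2, 83.0 and 85.8 CPM in Control. The LPS libraries lay above the other 6, and GSR rose in LPS/Control with a log2 fold change of 0.25 ± 0.0607 (SE, adjusted p = 0.0049). Without LPS replicate 3 GSR did not pass the test (0.19, adjusted p = 0.055). In SeMC+PBS/Control its log2 fold change was 0.03 (adjusted p = 0.74).

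The glutathione transferases, which attach glutathione to electrophiles, held both increases and decreases. GSTT1 (chromosome 15, 8115323 to 8126213), a theta class transferase, had 12.1, 13.9 and 12.8 CPM in SeMC+PBS, 4.87, 5.24 and 5.27 CPM in LPS and 6.17, 8.46 and 9.14 CPM in Control. SeMC+PBS was highest and LPS lowest, and no 2 groups overlapped. Its log2 fold change was 0.70 ± 0.153 (SE, adjusted p = 0.0023) in SeMC+PBS/Control, -0.62 ± 0.181 (SE, adjusted p = 0.016) in LPS/Control and 1.31 ± 0.141 (SE, adjusted p = 5.5e-06) in SeMC+PBS/LPS, where it was 2.48-fold higher. The comparisons with Control depended on its spread in Control: without Control replicate 1 the log2 fold change in SeMC+PBS/Control was 0.55, and without Control replicate 3 that in LPS/Control was -0.51 (adjusted p = 0.077), so that neither was called. Without Control replicate 2 the value in LPS/Control was -0.58, under the fold-change minimum, and with limma it was -0.60 but did not pass the test (adjusted p = 0.053).

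GSTA3 (chromosome 3, 88072417 to 88079157), an alpha class transferase, had 61.9, 51.6 and 61.2 CPM in SeMC+PBS, 28.3, 32.0 and 30.6 CPM in LPS and 65.7, 53.6 and 57.2 CPM in Control. The LPS libraries were the lowest, and SeMC+PBS overlapped Control. It was 1.92-fold lower in LPS than in Control at a log2 fold change of -0.94 ± 0.0872 (SE, adjusted p = 6.7e-07), and did not pass the test in SeMC+PBS/Control (-0.01, adjusted p = 0.93). The table also lists GSTA2 and GSTA4, close relatives of GSTA3, and how reads were divided among near-identical sequences is not stated.

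GSTZ1 (chromosome 5, 38686377 to 38695446), a zeta class enzyme of tyrosine breakdown, had 12, 21 and 21 counts in SeMC+PBS, 18, 29 and 17 in LPS and 68, 63 and 71 in Control. Scaled for depth, its levels were 1.02, 1.90 and 1.82 CPM in SeMC+PBS, 1.39, 2.14 and 1.28 CPM in LPS and 4.51, 4.13 and 4.13 CPM in Control. Both treatments lay below Control, and they overlapped each other. It fell, with log2 fold changes of -1.43 ± 0.288 (SE, adjusted p = 0.0013) in SeMC+PBS/Control and -1.39 ± 0.267 (SE, adjusted p = 0.00087) in LPS/Control, the largest decreases of the 37 genes against Control, at the lowest counts of the 37. MGST3 (chromosome 8, 5469421 to 5478601), a microsomal transferase, had 24.4, 20.9 and 24.7 CPM in SeMC+PBS, 30.9, 33.0 and 35.1 CPM in LPS and 37.05, 32.9 and 37.2 CPM in Control. Its SeMC+PBS libraries lay below the other 6, and LPS overlapped Control. MGST3 fell in SeMC+PBS/Control with a log2 fold change of -0.61 ± 0.0918 (SE, adjusted p = 0.00016), close to the fold-change minimum, and was -0.58 without Control replicate 3 and -0.54 without SeMC+PBS replicate 2, so that it was then not called. In LPS/Control it was -0.10 (adjusted p = 0.37). LRRC52, which overlaps MGST3, was at 13.3 to 18.4 CPM in SeMC+PBS, 10.5 to 12.2 CPM in LPS and 12.7 to 17.1 CPM in Control. GSTK1, a mitochondrial and peroxisomal transferase in mammals, rose in LPS/Control (0.34, adjusted p = 0.0052) and did not pass the test in SeMC+PBS/Control (0.01, adjusted p = 0.93).

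The thioredoxins carry electrons to peroxiredoxins and other proteins. TXN (chromosome Z, 67208387 to 67213741), the cytosolic thioredoxin, had 179, 171 and 170.4 CPM in SeMC+PBS, 155, 174 and 169 CPM in LPS and 176, 156 and 183 CPM in Control. All groups overlapped, and the log2 fold changes were 0.02 ± 0.0622 (SE, adjusted p = 0.84) in SeMC+PBS/Control and -0.03 ± 0.0645 (SE, adjusted p = 0.72) in LPS/Control. TXNL1, a thioredoxin-like protein, passed the test in no comparison, with log2 fold changes of 0.04 in SeMC+PBS/Control, 0.07 in LPS/Control and -0.04 in SeMC+PBS/LPS.

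TXN2 (chromosome 1, 51769482 to 51777168), the mitochondrial thioredoxin, had 75.7, 92.7 and 80.3 CPM in SeMC+PBS, 76.4, 87.1 and 83.0 CPM in LPS and 69.8, 64.7 and 73.9 CPM in Control. Every SeMC+PBS and every LPS library was above every Control library, and SeMC+PBS overlapped LPS. The log2 fold change was 0.26 ± 0.0790 (SE, adjusted p = 0.018) in SeMC+PBS/Control and 0.25 ± 0.0700 (SE, adjusted p = 0.011) in LPS/Control, so the increase was 1.19-fold in each. The direct comparison of the treatments gave -0.01 ± 0.0806 (SE, adjusted p = 0.93). The increases did not pass the test under every setting. Over 13 alternatives, among them DESeq2 and limma, the adjusted p was 0.012 to 0.13 in SeMC+PBS/Control and 0.0047 to 0.13 in LPS/Control. In SeMC+PBS/Control TXN2 did not pass the test without Control replicate 1, Control replicate 2 or SeMC+PBS replicate 2. Its log2 fold changes were then 0.26, 0.21 and 0.17, all still positive. In LPS/Control TXN2 did not pass it without Control replicate 2, LPS replicate 2 or LPS replicate 3, at 0.20, 0.20 and 0.24.

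Among the peroxiredoxins, which remove hydrogen peroxide, PRDX1 rose with LPS and PRDX4 with SeMC. PRDX1 (chromosome 8, 20836596 to 20842887), the abundant cytosolic enzyme, had 675, 695 and 657 CPM in SeMC+PBS, 1209.8, 1299.5 and 1270.2 CPM in LPS and 735, 657 and 718 CPM in Control. All LPS libraries were well above the other 6, and SeMC+PBS overlapped Control. PRDX1 was 1.81-fold higher in LPS than in Control, 0.85 ± 0.0537 (SE, adjusted p = 8.5e-09) on the log2 scale, and that in SeMC+PBS/Control was -0.06 ± 0.0579 (SE, adjusted p = 0.47). PRDX1 was 1.89-fold lower in SeMC+PBS than in LPS (log2 fold change -0.92, adjusted p = 7.1e-09).

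PRDX4 (chromosome 1, 118460697 to 118469165), the endoplasmic reticulum enzyme, had 39.1, 37.4 and 39.6 CPM in SeMC+PBS, 25.1, 25.9 and 23.1 CPM in LPS and 26.7, 18.2 and 22.4 CPM in Control. The SeMC+PBS libraries were the highest, and LPS overlapped Control. It was 1.73-fold higher in SeMC+PBS than in Control, a log2 fold change of 0.79 ± 0.110 (SE, adjusted p = 9.2e-05), and 0.15 ± 0.120 (SE, adjusted p = 0.35) was found in LPS/Control. The direct difference between the treatments was 0.63 ± 0.0798 (SE, adjusted p = 2.6e-05), but without LPS replicate 3 it was 0.57 and not called. LOC112531487, which overlaps PRDX4, was at 4.41 to 4.89 CPM in SeMC+PBS, 7.19 to 7.89 CPM in LPS and 6.11 to 6.75 CPM in Control. The part of this overlap in the counts of PRDX4 was not tested.

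SRXN1 (chromosome 20, 10264774 to 10266286), the sulfiredoxin that repairs overoxidized peroxiredoxins, had 48.9, 48.0 and 44.7 CPM in SeMC+PBS, 57.9, 62.7 and 57.2 CPM in LPS and 47.7, 42.6 and 51.0 CPM in Control. LPS lay above the other groups, and SRXN1 rose in LPS/Control with a log2 fold change of 0.34 ± 0.0773 (SE, adjusted p = 0.0028). In SeMC+PBS/Control its log2 fold change was 0.01 ± 0.0810 (SE, adjusted p = 0.97). The mitochondrial PRDX3 and the cytosolic PRDX6 passed the test in no comparison, with log2 fold changes against Control of -0.02 and -0.19 in SeMC+PBS and -0.05 and -0.20 in LPS.

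**Figure D3:**
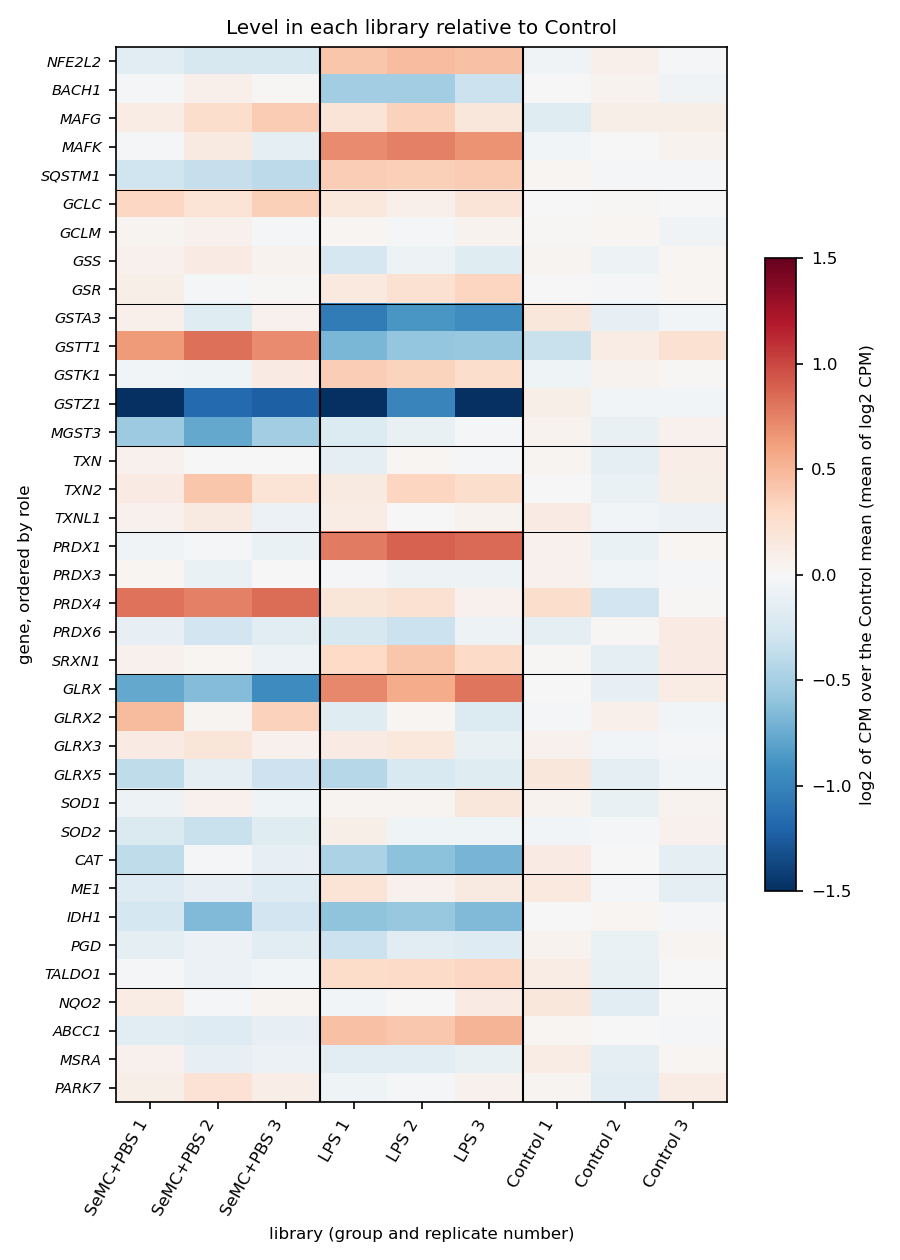
Level of the 37 genes tested (rows, ordered by role) in each of the 9 libraries (columns), as the log2 ratio to the mean of the Control libraries, from blue for lower to red for higher, with the colours ending at 1.5 in either direction. GSTZ1 is blue in SeMC+PBS and LPS, and PRDX4 is red in SeMC+PBS.

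Glutaredoxins remove glutathione from proteins, and of the 37 genes GLRX had the largest fold change in SeMC+PBS/LPS. GLRX (chromosome Z, 58159377 to 58167809), the cytosolic form, had 5.85, 6.34 and 5.19 CPM in SeMC+PBS, 16.4, 14.7 and 17.5 CPM in LPS and 10.03, 9.18 and 10.8 CPM in Control. The 3 groups were fully separated, with LPS highest and SeMC+PBS lowest. Its log2 fold change was -0.78 ± 0.154 (SE, adjusted p = 0.0011) in SeMC+PBS/Control and 0.71 ± 0.122 (SE, adjusted p = 0.00036) in LPS/Control. The level was 2.83-fold lower in SeMC+PBS than in LPS, or -1.501 ± 0.137 (SE, adjusted p = 1.1e-06) on the log2 scale.

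GLRX5, a mitochondrial glutaredoxin of iron-sulfur cluster assembly, had 45.2, 53.8 and 47.5 CPM in SeMC+PBS, 43.8, 50.3 and 51.8 CPM in LPS and 66.2, 53.9 and 57.4 CPM in Control. Its libraries in both treatments were below those of Control by a small margin, with log2 fold changes of -0.27 ± 0.0887 (SE, adjusted p = 0.023) in SeMC+PBS/Control and -0.27 ± 0.0877 (SE, adjusted p = 0.028) in LPS/Control. Without Control replicate 1 these were -0.19 and -0.18 and did not pass the test. The same held without SeMC+PBS replicate 1 (-0.22) or 3 (-0.25) in SeMC+PBS/Control and without LPS replicate 1 (-0.21) in LPS/Control. GLRX2 and GLRX3 passed the test in neither comparison with Control, and GLRX2 was higher in SeMC+PBS than in LPS (0.39, adjusted p = 0.033). That difference did not pass the test in DESeq2 (adjusted p = 0.10) and without LPS replicate 1 (0.082), LPS replicate 3 (0.11), SeMC+PBS replicate 1 (0.13) or SeMC+PBS replicate 3 (0.083).

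Among the enzymes that remove superoxide and hydrogen peroxide, CAT fell with LPS and SOD2 with SeMC. CAT (chromosome 5, 18220734 to 18239421), catalase, had 30.6, 39.5 and 36.6 CPM in SeMC+PBS, 28.7, 26.1 and 24.7 CPM in LPS and 43.5, 40.2 and 36.4 CPM in Control. The LPS libraries were below the other 6, and SeMC+PBS overlapped Control. It fell in LPS/Control, at -0.58 ± 0.0911 (SE, adjusted p = 0.00015) on the log2 scale, just under the fold-change minimum. It was called without Control replicate 2 (-0.59), Control replicate 3 (-0.65) or LPS replicate 1 (-0.65). Its log2 fold change in SeMC+PBS/Control was -0.17 ± 0.0977 (SE, adjusted p = 0.18). SOD2 (chromosome 3, 45320396 to 45327181), the mitochondrial superoxide dismutase, had 55.6, 51.6 and 57.0 CPM in SeMC+PBS, 68.9, 62.1 and 61.8 CPM in LPS and 63.1, 63.5 and 68.0 CPM in Control. The SeMC+PBS libraries were lower than the others, with a log2 fold change of -0.24 ± 0.0703 (SE, adjusted p = 0.013) in SeMC+PBS/Control. Without Control replicate 3 SOD2 did not pass the test (-0.21, adjusted p = 0.051). In LPS/Control the log2 fold change was -0.0015 ± 0.0690 (SE, adjusted p = 0.99). SOD1, the cytosolic form, passed the test in no comparison (log2 fold changes -0.02 in SeMC+PBS/Control and 0.10 in LPS/Control).

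NADPH feeds both the glutathione and the thioredoxin systems. IDH1 (chromosome 7, 13413022 to 13425607), the cytosolic isocitrate dehydrogenase, had 65.4, 49.7 and 64.4 CPM in SeMC+PBS, 51.8, 53.2 and 49.8 CPM in LPS and 78.9, 80.2 and 76.8 CPM in Control. Both treatments lay below Control without overlap, and they overlapped each other. IDH1 fell, with log2 fold changes of -0.39 ± 0.0875 (SE, adjusted p = 0.0028) in SeMC+PBS/Control and -0.59 ± 0.0647 (SE, adjusted p = 3.8e-06) in LPS/Control, where it was just over the fold-change minimum and was not called without LPS replicate 3 (-0.58) or after thinning to equal depth (-0.58). It overlaps LOC424111, which was at 20.6 to 22.1 CPM in SeMC+PBS, 16.8 to 19.4 CPM in LPS and 22.6 to 28.3 CPM in Control. The part of this overlap in the counts of IDH1 was not tested.

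In the pentose phosphate pathway, PGD fell and TALDO1 rose in LPS. TALDO1, transaldolase, had 323, 309 and 319 CPM in SeMC+PBS, 397, 399.9 and 408 CPM in LPS and 354, 304 and 331 CPM in Control. The LPS libraries were the highest, with log2 fold changes of 0.30 ± 0.0557 (SE, adjusted p = 0.00068) in LPS/Control and -0.05 ± 0.0602 (SE, adjusted p = 0.5) in SeMC+PBS/Control. PGD, phosphogluconate dehydrogenase, had 328, 340.2 and 319.6 CPM in SeMC+PBS, 288, 320.0 and 316 CPM in LPS and 374, 337 and 372 CPM in Control. The LPS libraries were below all Control libraries, and SeMC+PBS overlapped both other groups. Its log2 fold change was -0.22 ± 0.0562 (SE, adjusted p = 0.0076) in LPS/Control and -0.13 ± 0.0573 (SE, adjusted p = 0.08) in SeMC+PBS/Control. ME1, malic enzyme, did not pass the test against Control and was lower in SeMC+PBS than in LPS (-0.32, adjusted p = 0.0022).

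Of the remaining genes, ABCC1 (chromosome 14, 7648833 to 7700212), an exporter of glutathione conjugates, had 208, 203 and 213 CPM in SeMC+PBS, 315, 306 and 329 CPM in LPS and 235, 233 and 226 CPM in Control. The 3 groups did not overlap, and LPS was highest. ABCC1 fell in SeMC+PBS/Control, at -0.15 ± 0.0526 (SE, adjusted p = 0.029) on the log2 scale, and rose in LPS/Control, at 0.46 ± 0.0501 (SE, adjusted p = 3.5e-06). The decrease in SeMC+PBS did not pass the test without Control replicate 1 (adjusted p = 0.076), Control replicate 2 (0.051), SeMC+PBS replicate 1 (0.081), SeMC+PBS replicate 2 (0.078) or SeMC+PBS replicate 3 (0.056). With 1 library left out, its log2 fold change ranged from -0.18 to -0.14. Compared directly, ABCC1 was 1.55-fold lower in SeMC+PBS than in LPS, with a log2 value of -0.63 ± 0.0486 (SE, adjusted p = 2.3e-07). On quantile-normalized values tested with limma, ABCC1 and NFE2L2 fell under the fold-change minimum in SeMC+PBS/LPS (log2 fold changes -0.53 and -0.58).

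NQO1, a quinone reductase and a standard NRF2 target in mammals, was nearly without counts. It had 0, 0 and 0 counts in SeMC+PBS, 0, 1 and 0 in LPS and 0, 10 and 0 in Control, and a count of 0 in a SeMC+PBS library allows up to 3 counts, or 0.25 to 0.27 CPM. OSGIN1, an oxidative stress-induced growth inhibitor, had 2, 2 and 2 counts in SeMC+PBS, 9, 1 and 5 in LPS and 8, 8 and 5 in Control. The SeMC+PBS libraries of OSGIN1 lay below those of Control, but both genes were under the filter on low counts and were not tested. NQO2, MSRA and PARK7 passed the test in no comparison, with log2 fold changes from -0.05 to 0.13 in SeMC+PBS/Control and from -0.13 to 0.04 in LPS/Control.

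Of the 37 genes, 14 passed the test in neither comparison with Control, among them GCLM, GSS, TXN, SOD1 and PARK7. The share of all genes with this joint pattern, or with those that follow, was not counted. Taken singly, 39.3% of all genes passed in SeMC+PBS/Control and 34.5% in LPS/Control. GLRX, NFE2L2, SQSTM1 and ABCC1 rose in LPS/Control and fell in SeMC+PBS/Control, and all 4 were called lower in SeMC+PBS/LPS. GSTT1 rose in SeMC+PBS/Control, fell in LPS/Control and was called higher in SeMC+PBS/LPS. SeMC+PBS/LPS uses the same SeMC+PBS and LPS libraries. Its direction in genes that moved oppositely against Control therefore follows from those comparisons and is not separate evidence. TXN2 rose and GSTZ1, IDH1 and GLRX5 fell in both comparisons, which use the same Control libraries, and none of these 4 passed the test in SeMC+PBS/LPS.

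**Figure D4:**
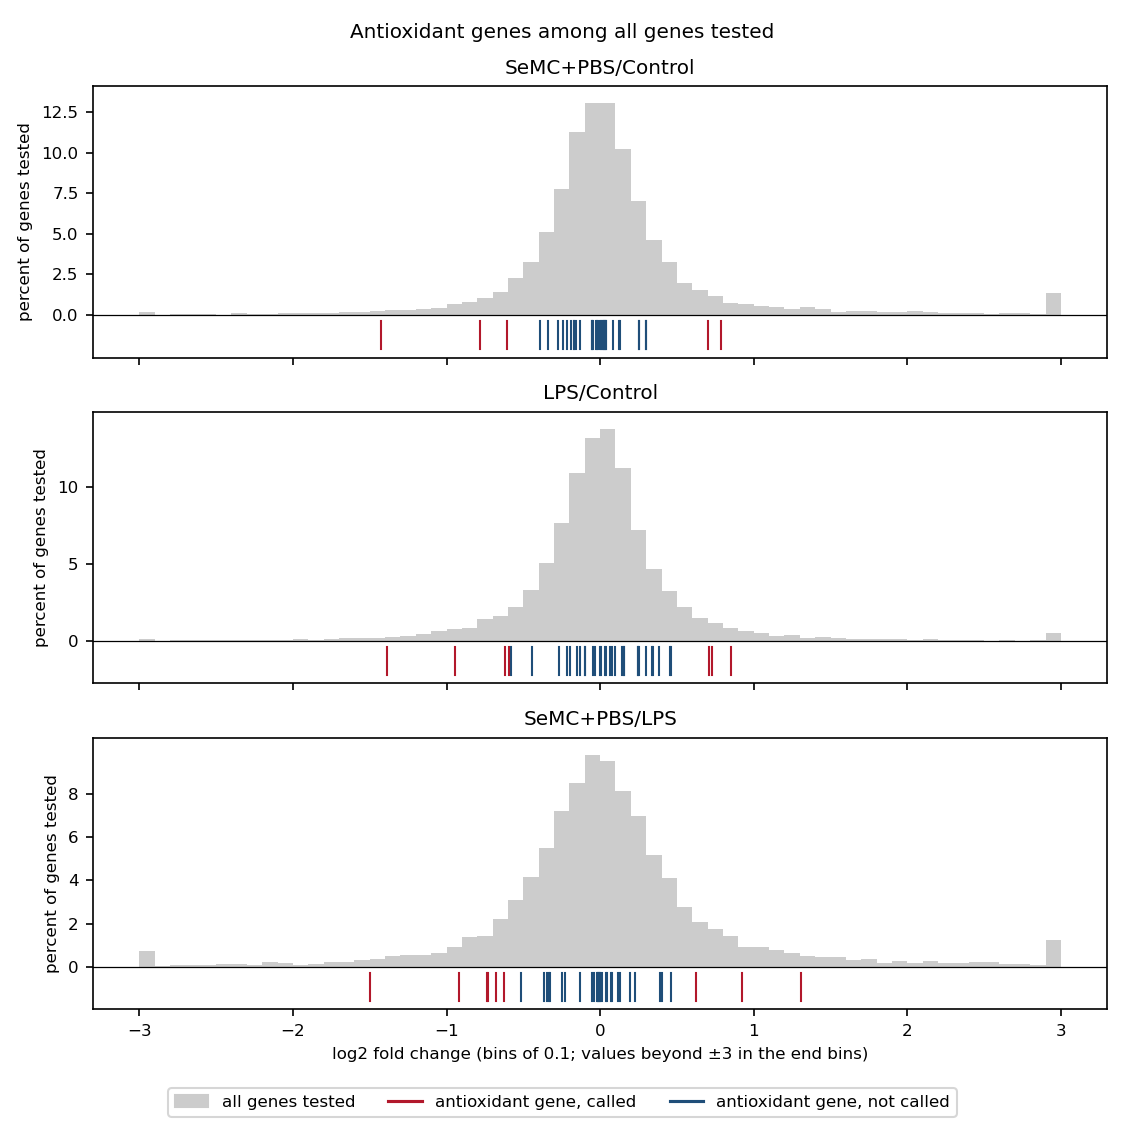
Distribution of log2 fold changes (horizontal axis, bins of 0.1) over all genes tested, as percent of genes (grey bars), with the 37 antioxidant genes as ticks below, red where called. The called genes number 5 in SeMC+PBS/Control, 7 in LPS/Control and 9 in SeMC+PBS/LPS, and most ticks lie close to 0.

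A further list of 68 genes of the same systems outside the group had 57 genes in the table, of which 53 were tested, and it was written with earlier results of these data known. In SeMC+PBS/Control 2 of the 53 were called, CHAC1 and MAFF, and both were higher (3.77%, against 14.1% of all genes called in either direction and 8.5% called higher). CHAC1, which breaks down glutathione, was at 30.7 ± 2.85 CPM in SeMC+PBS and 18.3 ± 6.18 CPM in Control (SD, n = 3 each), a log2 fold change of 0.74 ± 0.164 (SE, adjusted p = 0.0026). MAFF, another small MAF, was at 46.6 ± 3.36 CPM in SeMC+PBS, 56.3 ± 2.29 CPM in LPS and 28.8 ± 5.00 CPM in Control (SD, n = 3 each), and it rose in both comparisons with Control, with log2 fold changes of 0.69 (adjusted p = 0.00019) and 0.98 (adjusted p = 2.6e-06).

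In LPS/Control 9 of the 53 genes were called higher (17%, against 6.13% of all genes) and 4 lower (7.55%, against 5.92%). FTH1, the ferritin heavy chain, had 5058 ± 111 CPM in LPS and 1925 ± 75.8 CPM in Control (SD, n = 3 each), a log2 fold change of 1.41 ± 0.0524 (SE, adjusted p = 1.7e-11). The exporter ABCC4 (1.10, adjusted p = 2.8e-10) and the microsomal transferase MGST1 (0.82, adjusted p = 1.8e-08) also rose. AKR1B10, an aldo-keto reductase, had the largest decrease of the list, at 45.8 ± 2.28 CPM in LPS and 89.2 ± 3.08 CPM in Control (SD, n = 3 each), a log2 fold change of -0.95 ± 0.0664 (SE, adjusted p = 2.9e-08). In SeMC+PBS/LPS 2 genes of the list were called higher (3.77%, against 12.5% of all genes) and 10 lower (18.9%, against 10.4%). FTH1 overlaps BEST1 and ABCC4 overlaps CLDN10, so their counts are uncertain.

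Some limits apply to all comparisons. The SeMC+PBS libraries were the shallowest, so treatment and depth cannot be told apart by design. With all libraries thinned to the total of the shallowest library, 4 of the 5 genes called in SeMC+PBS/Control were still called, and GSTT1 was not (log2 fold change 0.54). In LPS/Control the thinned counts left 3 genes higher and 3 lower, without IDH1. Over all genes, fewer were called after thinning than without it in both comparisons with Control, in each direction. Without thinning these were 1117 higher and 733 lower in SeMC+PBS/Control, and 797 and 770 in LPS/Control. Thinning draws counts at random, so fold changes shift with the draw. Whether depth or the draw moved GSTT1 and IDH1 was not tested. Of the 39 genes, 11 overlap another annotated gene. The split of all genes called in SeMC+PBS/Control, 1117 higher and 733 lower, was 801 higher and 1149 lower with limma on quantile-normalized values. That run also differed in the test and had no filter on low counts. It covered 16157 genes against 13146, so the part of the normalization alone was not tested. The split of the antioxidant genes was 2 higher and 3 lower in each.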

How the data were processed

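Per the study's methods and the labels, the authors filtered single reads from Illumina TruSeq libraries, mapped them with Hisat2 to GRCg7b and counted them per gene with HTSeq. The deposited values of the Control, LPS and SeMC+PBS libraries are raw counts, without normalization. Those of SeMC+LPS are means of other columns, as described above. Versions, annotation release and strand setting are not given in the sources used here. No column outside the 12 libraries was present.

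Counts of the 6 libraries of each comparison were tested over all genes with edgeR 4.0.16 in R 4.3.3, with TMM normalization, filterByExpr (minimum count 10), quasi-likelihood F-tests and Benjamini-Hochberg adjustment. Adjusted p-values in the text come from this test unless another tool, an alternative run or a left-out library is named. Ranges over the alternatives include values from DESeq2 and limma. Levels in CPM used TMM factors over 9 libraries. Standard errors are the log2 fold change divided by the square root of F. Depth was 10656332 to 17024392 counts per library, and limits from counts cover counting error only. Coordinates and overlaps are from RefSeq (GRCg7b), which matched all 39 symbols.

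Alternatives were RLE size factors, DESeq2 1.42.0, limma 3.58.1 after quantile normalization of log2(count + 1), no filter, 9 libraries in one fit, a replicate block, other fold-change minimums, thinning and leaving out each library. The tests were also run on simulated counts with changes above the fold-change minimum, so that run does not cover smaller changes. Figures were drawn with matplotlib 3.10.9. Named in full were genes called and a list of 13 genes given in any case, of which KEAP1 and TXNIP were not analysed here. The members and lists were chosen with earlier results of these data known.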

Additional observations from a re-analysis of the deposited data

How the results depend on the processing

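No antioxidant gene called in a comparison changed direction there under any alternative run. The number called depended on the fold-change minimum. With a minimum of 1.2 it was 3 higher (8.11%, against 16.7% of all genes) and 6 lower (16.2%, against 14.6%) in SeMC+PBS/Control, 9 higher (24.3%, against 14.2%) and 7 lower (18.9%, against 13.4%) in LPS/Control, and 6 higher (16.2%, against 23%) and 11 lower (29.7%, against 22.3%) in SeMC+PBS/LPS. With no minimum it was 4 higher and 9 lower, 11 higher and 8 lower, and 7 higher and 13 lower in the same order. Of all genes, 20.3% were then higher and 19.1% lower in SeMC+PBS/Control. The shares were 18% and 16.5% in LPS/Control, and 27.2% and 27.1% in SeMC+PBS/LPS. Thinning to equal depth left 1 antioxidant gene higher and 3 lower in SeMC+PBS/Control. Over all genes, thinning also left fewer called in each direction than the 1117 higher and 733 lower without it. Leaving out 1 library gave 1 to 2 higher and 2 to 3 lower in SeMC+PBS/Control, 3 higher and 3 to 5 lower in LPS/Control, and 2 to 3 higher and 6 lower in SeMC+PBS/LPS. Over all genes it gave 1079 to 1172 higher and 633 to 786 lower in SeMC+PBS/Control. In LPS/Control these were 745 to 799 and 693 to 896, and in SeMC+PBS/LPS 1565 to 1725 and 1271 to 1388. With the replicate block the counts of antioxidant genes were those of the fit without it, 2 and 3, 3 and 4, and 3 and 6. Those of all genes were 1118 and 726, 777 and 746, and 1633 and 1338 with the block. Deviations of same-numbered libraries correlated at -0.09 to 0.05 over 9 pairs, so no pairing by replicate number was seen. Whether same-numbered libraries shared a culture is not stated by the labels. The block moved MAFG in SeMC+PBS/Control past the threshold (adjusted p = 0.049) and GLRX5 in LPS/Control and GLRX2 in SeMC+PBS/LPS out of it (0.059 and 0.052).

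Log2 fold changes that reversed were all close to 0 and not significant. MAFK in SeMC+PBS/Control was -0.0086 with limma, -0.00094 with 9 libraries in one fit, -0.0018 with the replicate block and -0.012 after thinning. GCLM was -0.029 in LPS/Control and 0.060 in SeMC+PBS/LPS with limma, and 0.0080 in SeMC+PBS/LPS with 9 libraries in one fit. In SeMC+PBS/LPS TXN2 was 0.021 with limma and 0.013 with 9 libraries in one fit, and MAFG was 0.019 with 9 libraries in one fit and 0.021 after thinning. With 1 library left out, the ranges in SeMC+PBS/Control were -0.070 to 0.066 for MAFK, -0.046 to 0.061 for TXN, -0.063 to 0.061 for SRXN1 and -0.0037 to 0.056 for BACH1. That of TXN in LPS/Control was -0.10 to 0.0089. In SeMC+PBS/LPS they were -0.016 to 0.075 for TXN, -0.061 to 0.070 for MAFG, -0.10 to 0.06 for TXN2 and -0.041 to 0.020 for GCLM. The cause of these changes was not tested. Of the 871 fold changes recorded under alternatives, 794 kept their direction and side of the FDR threshold. In 17 the call by FDR and fold change differed. With limma, 16 fold changes that had passed the test did not, including GSTT1 in LPS/Control, which had been called (-0.60, adjusted p = 0.053), NFE2L2, SOD2 and IDH1 in SeMC+PBS/Control, and GSR, SRXN1 and TALDO1 in LPS/Control.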
